A study of Macaca fascicularis with 4 samples.

Results

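Insulin-like growth factor 1 (IGF1), its receptor (IGF1R) and 5 proteins that bind insulin-like growth factors in the extracellular space (IGFBP2, IGFBP3, IGFBP4, IGFBP5 and IGFBP7) were followed through droplet single-cell RNA sequencing of cynomolgus monkey embryos. The 7 genes were chosen by their symbols, and all 7 had a row in each of the 4 libraries, out of 26223 rows. The series asks where the somatic cells of the gonad come from. It holds 1 library at each of embryonic days (E) 24, 28, 31 and 37, which are Carnegie stages 11, 13, 14 and 18. The E24 library came from trunk tissue, after yolk sac, amnion, heart, anterior tissue and the posterior growth zone were taken off, and its label names more than 1 embryo. At E28 and E31 the urogenital ridge was taken, and mesonephros, epithelium of the coelom and some mesentery were still on it. The E37 library was mainly gonadal ridge, since most of the mesonephros and mesentery had been trimmed, and some mesonephros, presumed adrenal and mesentery remained. Stage and dissection therefore cannot be told apart, except between E31 and E28. The labels name both v2 and v3 kits without saying which served which library, so a difference in kit cannot be told apart from stage in any pair. No stage has a second library, so no test was run between stages. No treatment or mutant is named in the labels.

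IGF1 is a secreted growth factor that signals through IGF1R, a receptor tyrosine kinase closely related to the insulin receptor INSR. The binding proteins hold the growth factor in the tissue, keep it from the receptor or release it after proteases cut them, and IGFBP7 binds insulin-like growth factors only weakly. In mouse, IGF1R acts together with INSR in the formation of the adrenal gland and the gonad from the urogenital ridge.

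The libraries kept 10639, 4964, 6654 and 5288 cell barcodes at E24, E28, E31 and E37, with median depths of 9990, 11317, 9764 and 6670 unique molecular identifiers (UMIs). Levels are UMIs summed over barcodes and given as CPM, the UMIs of a gene scaled to all UMIs summed over the same barcodes. Their 95% intervals are exact and cover counting error only. Because reads came from transcript 3′ ends and no per-length value exists, levels are compared between cells for 1 gene, and not between genes. Each barcode was also thinned to 2000 UMIs, so that shares of barcodes with a UMI can be set side by side across depths. Libraries shared 37 to 111 barcode sequences per pair, at most 1.67% of the smaller library. In erythroid-like cells, which are red cell precursors and served as a rough measure of free RNA, thinned shares for IGF1R, IGFBP2 and IGFBP4 reached 4.17%, 12.7% and 4.17%, and IGF1 had 2 UMIs in all. These cells numbered 110, 48, 48 and 111, and their median depths were 23119, 31407, 28371 and 13770 UMIs. Their UMIs were not evenly spread: at E24, 11 of the 110 cells held 76.1% of the IGFBP2 UMIs, and 61.8% had none. How much of these values is free RNA was not tested.

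IGF1, the only ligand among the 7 genes, was found in few cells at every stage. Its level was 3.78 CPM (3.43 to 4.15) at E24, 12.5 CPM (11.6 to 13.4) at E28, 10.1 CPM (9.39 to 10.9) at E31 and 13.9 CPM (12.8 to 15.1) at E37. After thinning, 0.724%, 1.93%, 1.98% and 2.65% of barcodes carried a UMI of it, in the order of stages. The 5% of barcodes richest in IGF1 held 100%, 85.5%, 85.7% and 84.4% of its UMIs. At E24 its UMIs were fewer than the barcodes in that 5%, so the 100% was fixed by the count. This measure rises as UMIs become fewer, so it partly restates the low level of IGF1 and is not compared between genes. IGF1 transcripts were thus found in a small share of barcodes in all 4 libraries, and how unevenly they were spread for their number was not tested.

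IGF1R, the receptor, was found in a larger share of barcodes. Its level was 47.7 CPM at E24, 69.4 CPM at E28, 65.5 CPM at E31 and 53.1 CPM at E37, and its thinned share was 8.94%, 12.5%, 12.4% and 10.1%. The top 5% of barcodes held 22.3% to 29.7% of its UMIs. Neither its level nor its concentration moved by as much as 2-fold between any of the neighbouring libraries.

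Among the binding proteins, IGFBP2, a binding protein abundant in embryonic tissues, had UMIs in most barcodes. It stood at 1079, 712, 647 and 603 CPM, and 70.8%, 62.9%, 59.9% and 55.4% of thinned barcodes carried it. IGFBP4, which the protease PAPPA cleaves, stood at 125, 388, 351 and 331 CPM, with thinned shares of 18.4%, 46.8%, 45.3% and 41.9%. IGFBP4 was thus lower at E24 than in any later library, while IGFBP2 was higher there.

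The other 3 binding proteins differed more between libraries, and each was held by fewer barcodes than IGFBP2 in every library. IGFBP5 was held by more barcodes than IGFBP4 at E24 and E37. IGFBP3, the main serum carrier of insulin-like growth factors after birth, stood at 258, 151, 72.0 and 573 CPM, with thinned shares of 15.5%, 19.0%, 9.59% and 39.6%. Its share was lower at E24 than at E28 although its level was higher, so no order is read from the share of these 2 libraries, and single barcodes at E24 reached 244 UMIs. IGFBP5, which also binds extracellular matrix, stood at 199, 73.5, 105 and 466 CPM, with thinned shares of 21.7%, 11.4%, 15.2% and 47.2%. Both of these genes were highest at E37. IGFBP7 stood at 6.21 CPM at E24, 123 CPM at E28, 77.7 CPM at E31 and 155 CPM at E37, and its thinned share was 1.09%, 15.95%, 10.4% and 16.7%. At E24 all of its UMIs lay in the 5% richest barcodes, against 49.8%, 53.8% and 55.1% at E28, E31 and E37. Its level was lowest at E24, and fewer UMIs raise this share by themselves.

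**Figure D1:**
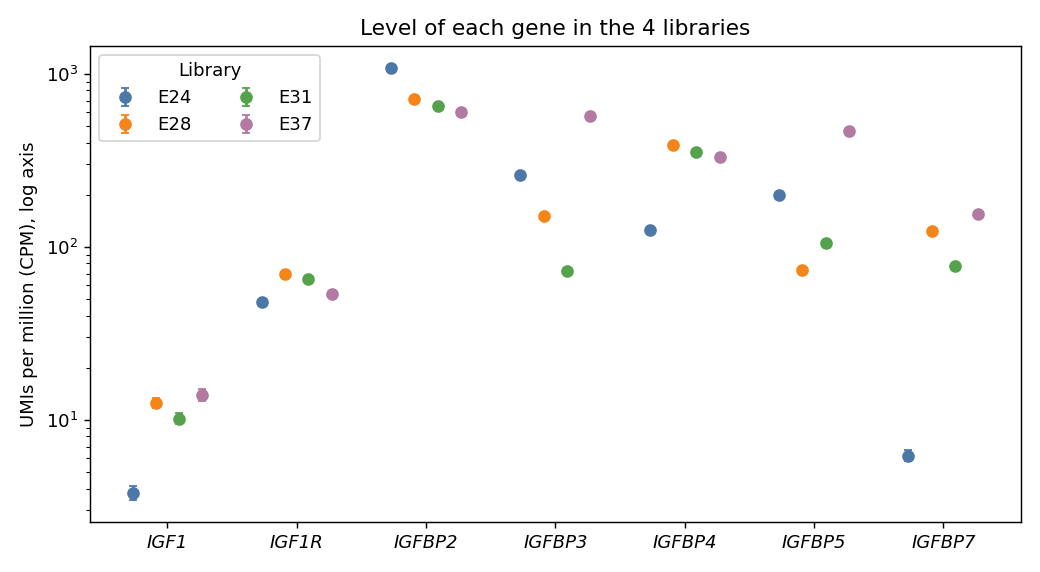
Level of each of the 7 genes (log axis, CPM, points with exact 95% Poisson intervals) in the E24, E28, E31 and E37 libraries. IGFBP7 lies at 6.21 CPM at E24 and above 77 CPM in the later libraries, IGFBP3 and IGFBP5 are highest at E37, and IGF1R stays between 47.7 and 69.4 CPM.

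Levels at neighbouring stages were compared as ratios of CPM, and a gene was called apart at 2-fold or more with at least 50 UMIs over both libraries. In the E28 library 4 of the 7 genes were apart from E24, beside 22.4% of the 16137 genes compared. IGFBP7 was 19.9-fold higher at E28 (18.4 to 21.5), IGF1 was 3.31-fold higher (2.94 to 3.73) and IGFBP4 was 3.11-fold higher (3.04 to 3.17). IGFBP5 was lower at E28, with a ratio of 0.370 (0.358 to 0.382). The median log2 ratio was 0.54 for the 7 genes and 0.24 for all genes compared. A scaling on the median ratio shifts all log2 ratios of this pair by 0.23, and under it IGFBP3, whose ratio was 0.582, also lies past 2-fold lower, at a log2 ratio of -1.01.

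The E31 and E28 libraries, which came from the same kind of dissection, were close. IGFBP3 was the 1 gene apart, with 72.0 CPM at E31 against 151 CPM at E28 (ratio 0.478, 0.462 to 0.495), beside 4.24% of all genes. The ratios of the other 6 ran from 0.631 for IGFBP7 to 1.43 for IGFBP5.

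Between E37 and E31, 2 of the 7 genes were apart, beside 16.7% of all genes. IGFBP3 was 7.96-fold higher at E37 (7.72 to 8.20), and IGFBP5 was 4.43-fold higher (4.31 to 4.55). IGFBP7 lay just under the threshold, at 1.99-fold higher (1.92 to 2.06). IGF1, IGF1R, IGFBP2 and IGFBP4 had ratios between 0.812 and 1.38. Summed levels like these change both with the level per cell and with the cell types that each dissection took.

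Levels were next set out by cell population. Barcodes of each library were clustered with the 7 genes and the pathway list left out of the clustering genes, and clusters were named from marker lists. The clusters numbered 29, 24, 24 and 28, of which 11, 14, 14 and 16 were left unnamed and are called here by their leading genes. These levels are descriptions, since clusters of 1 library are not replicates. The heat map of class levels shows all 7 genes in the named classes.

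**Figure D2:**
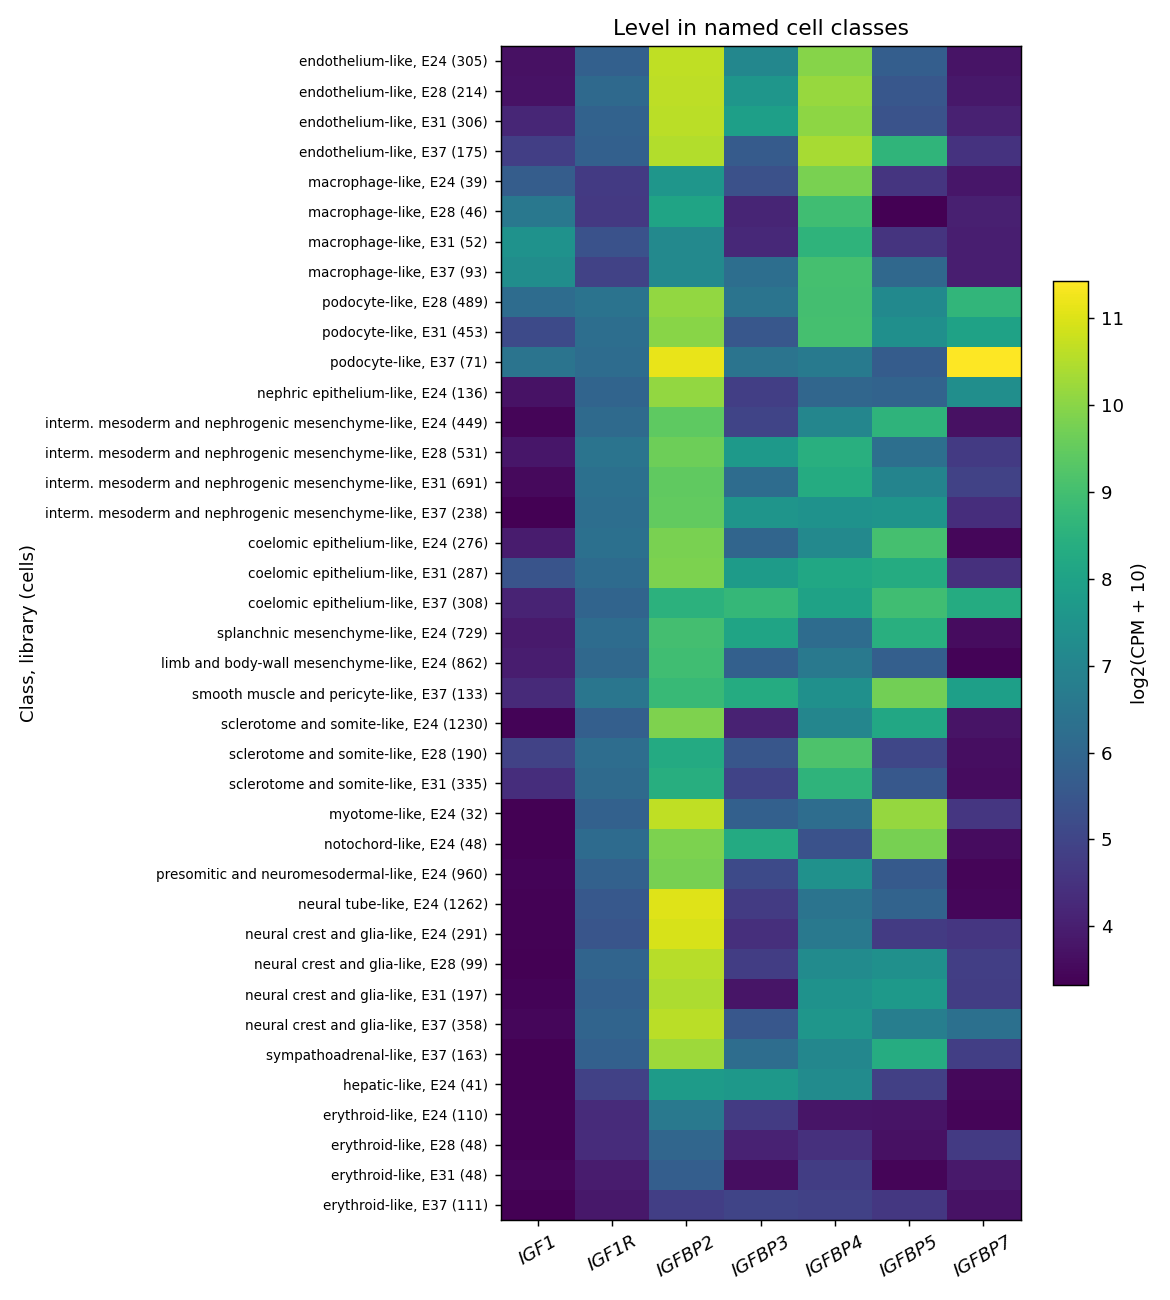
Level of each of the 7 genes in the named classes with at least 30 cells, by library, as log2 of CPM plus 10. IGFBP4 is highest in endothelium-like cells in every library, IGF1 in macrophage-like cells, and IGFBP7 in podocyte-like cells at E37.

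IGF1 was highest in macrophage-like and podocyte-like cells, in unlike proportions at each stage. In macrophage-like cells (39, 46, 52 and 93 cells) its level was 42.1, 85.7, 165 and 148 CPM in the order of stages. In podocyte-like cells, the filtering cells of the mesonephric glomerulus, it stood at 63.3, 25.3 and 76.7 CPM at E28, E31 and E37. At E28 these cells formed a pair of clusters that differed in IGF1, with 269 CPM (232 to 311) in 90 cells and 27.0 CPM (22.1 to 32.7) in 399 cells. Macrophage-like cells at E37 were 0.896 of the E31 level (0.688 to 1.17), an interval that holds 1. At E24 an unnamed cluster led by WNT2 and PITX1 stood at 40.7 CPM, close to the macrophage-like cells, and held 33.7% of the library's IGF1 UMIs. At E31 the coelomic epithelium-like cells came after the macrophage-like cells, at 33.3 CPM (27.1 to 40.5). The gene was near absent from neural cells, with 5 UMIs in 1262 neural tube-like cells at E24 and at most 3 UMIs in any neural crest-like class.

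IGF1R varied little among populations. Its highest cluster lay only 1.45, 1.72, 1.82 and 1.51-fold above the library level at E24, E28, E31 and E37. At E28 and E31 that cluster was an unnamed one led by SLC12A1 and IRX genes, markers of a tubule segment of the nephron, at 119.5 and 119 CPM. At E24 it was the coelomic epithelium-like class, at 69.3 CPM, and at E37 the smooth muscle-like class, at 80.2 CPM. Erythroid-like cells were low, at 10.0, 10.6, 5.40 and 4.32 CPM, and the lowest cluster up to E31 was an unnamed one at 2.46, 9.94 and 0.896 CPM, on 2, 11 and 1 UMIs. Macrophage-like cells were also low, at 16.04, 15.6, 31.2 and 20.4 CPM although they were high in IGF1.

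IGFBP2 was high in neural and endothelial populations, and highest at E24 in an unnamed cluster and at E37 in podocyte-like cells, at 2276 CPM. The E24 cluster, led by MIR205HG and TFAP2B, held 2994 CPM (2954 to 3035), and neural tube-like cells held 2085 CPM. Neural crest and glia-like cells held 1969.8, 1490.1, 1383 and 1526 CPM in the order of stages, and endothelium-like cells held 1614, 1584, 1547 and 1425 CPM. In both classes the IGFBP2 level varied by less than 2-fold across the 4 stages. Macrophage-like cells stood at 180.5, 257, 131 and 129.7 CPM, and at E37 the coelomic epithelium-like class stood at 363 CPM, against 893 CPM at E31.

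IGFBP3 was highest in unnamed clusters, several of them led by matrix genes such as DCN and LUM. At E24 a cluster of 235 cells led by SLC5A12 and AQP1 stood at 3132 CPM and held 30.4% of all IGFBP3 UMIs. It was followed by the WNT2 and PITX1 cluster at 1372 CPM, the cluster that held the most IGF1 UMIs at E24. At E28 the highest was an unnamed cluster led by DCN, LUM and HLX at 565 CPM, and at E31 one led by TNC and DLK1 at 344 CPM. At E37, 3 unnamed clusters were highest: 1 led by MSANTD1, MAB21L2 and ISL1 at 3584 CPM, 1 led by NR1H4, RXRG and LHX2, with FOXF1 and GATA4 among its leading genes, at 2854 CPM, and 1 led by FREM3 and DCN at 2521 CPM. The last held 28.9% of the library's IGFBP3. Among clusters of at least 50 cells, 18 of 24 at E24 and 14 of 26 at E37 were 2-fold or more under the rest of their library. That rest took in the high clusters, so the count partly restates them, and no share over all genes was taken beside it.

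IGFBP4 had 1 leading population in all 4 libraries, the endothelium-like cells. Their level was 976, 1143, 1050.4 and 1322 CPM in the order of stages, and they were the only cluster of at least 50 cells 2-fold or more over the rest at each stage. Macrophage-like cells came next at E24, at 878 CPM, and stood at 486, 379 and 512 CPM in the later libraries. Podocyte-like cells held 503 and 516 CPM at E28 and E31 but 90.3 CPM at E37.

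IGFBP5 had different leading populations in each library. At E24 the coelomic epithelium-like class, led by NR0B1 and OSR2, stood at 513 CPM, 48 notochord-like cells at 861 CPM and 32 myotome-like cells at 1129 CPM. At E28 a cluster led by ALDH1A2, LUM and BNC1, which are mesothelial and mesenchymal genes, led with 287 CPM. At E31 it was a cluster led by TTR and GPR37 with 511 CPM. At E37 the MSANTD1 cluster that led for IGFBP3 also led for IGFBP5, at 1629 CPM (1520.4 to 1744), and smooth muscle-like cells stood at 832 CPM.

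IGFBP7 was highest in cells with nephric genes before E37. Nephric epithelium-like cells at E24 stood at 149.9 CPM (131 to 171), 24.2-fold above the library, and these 136 cells held 32.1% of its UMIs. At E28 an unnamed cluster led by CALB1 and TMEM52B, tubule genes, stood at 833 CPM and held 37.9%. At E31 a cluster led by CALB1 and ALDH1A1 stood at 583 CPM and held 31.5%. In each library before E37 about 1 in 3 IGFBP7 UMIs lay in a single cluster, and podocyte-like cells were high too, at 395 and 246 CPM at E28 and E31. At E37 podocyte-like cells stood at 2755 CPM, an unnamed cluster led by NPNT and HOXC5 at 388 CPM, and clusters with LHX9 among their leading genes came next, with 311 CPM in the coelomic epithelium-like cluster and 244 CPM in a cluster led by GATA4, PRSS35, KRT18 and LHX9.

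Podocyte-like cells as a class had high summed levels of IGF1 and IGFBP7, but IGF1 lay in few of them. At E28 and E31, 83.2% and 89.0% of these cells had no IGF1 UMI, against 26.6% and 38.0% without one of IGFBP7. Cells with both genes were not counted. The E37 cluster of 71 cells was also led by tubule genes such as LHX1, EPCAM, CALB1 and CLDN3, so podocyte-like clusters were divided by EPCAM, an epithelial adhesion gene, a division chosen after values were seen. At E37, IGFBP7 stood at 1081 CPM (988 to 1181) in 53 cells with a UMI of EPCAM, against 8582 CPM (8087 to 9098) in 18 cells without one. IGF1 stood at 6.58 CPM (1.36 to 19.2), or 3 UMIs, with EPCAM, against 321 CPM (231 to 433) without it. IGFBP4 stood at 52.6 CPM with EPCAM and 221 CPM without. IGFBP2 ran the other way, at 2465 CPM with EPCAM and 1619 CPM without. In cells without EPCAM, 1 cell held 27 of the 42 IGF1 UMIs, and without it the level there was 130 CPM (72.5 to 214). All 18 of these cells had IGFBP7, which stood at 8130 CPM without the richest. At E37, then, IGF1 and IGFBP7 lay mostly in the cells of the cluster without an EPCAM UMI, and IGFBP2 was lower there.

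At E31 the same division gave 13.9 CPM of IGF1 (9.10 to 20.4) in 186 cells with EPCAM, against 35.3 CPM (27.8 to 44.3) in 267 cells without. IGFBP7 differed little there, at 225 CPM with EPCAM and 264 CPM without. In the large E28 cluster IGF1 stood at 9.53 CPM (4.93 to 16.7) in 110 cells with EPCAM, against 35.3 CPM (28.5 to 43.2) in 289 cells without. IGFBP7 stood at 364 CPM with EPCAM and 305 CPM without in that cluster. The small E28 cluster, which held 800.4 CPM of IGFBP7 and 158 CPM of IGFBP4, had 266 CPM of IGF1 in 16 cells with EPCAM and 269.9 CPM in 74 cells without. In that small cluster 1 cell held 15 of the 32 IGF1 UMIs with EPCAM. Without the richest cell of each side IGF1 stood at 150 CPM (87.3 to 240) with EPCAM and 237 CPM (198 to 281) without. IGF1 was thus lower with EPCAM in all of these clusters but the small one of E28, where the values turned on 1 cell.

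**Figure D3:**
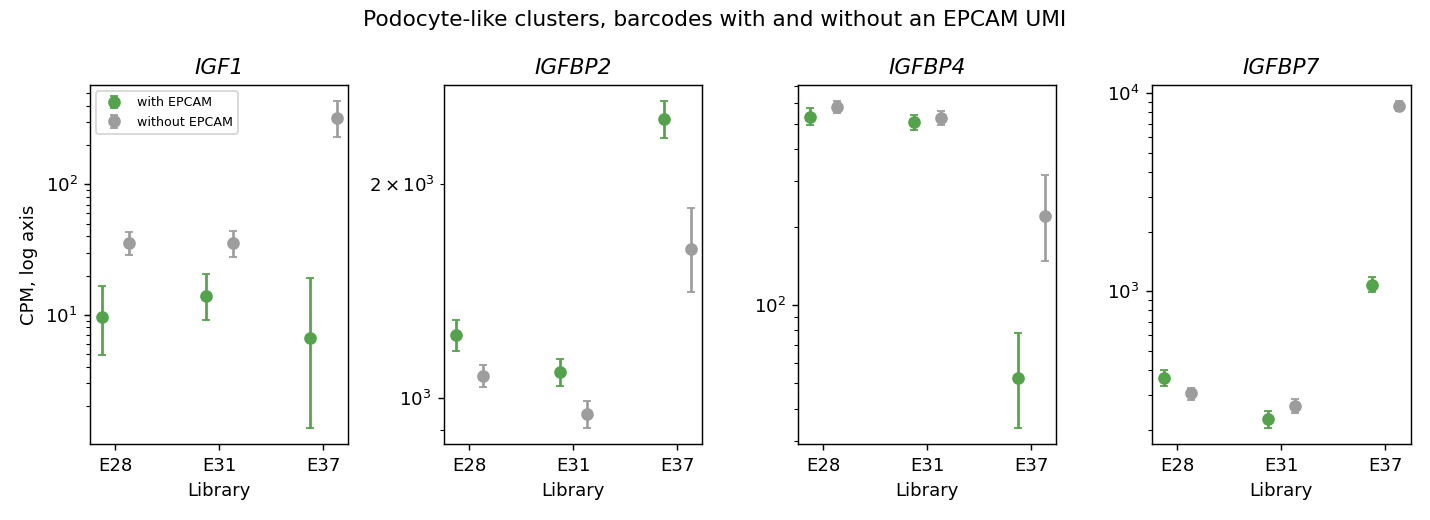
Level of IGF1, IGFBP2, IGFBP4 and IGFBP7 (log axis, CPM, with exact 95% Poisson intervals) in podocyte-like cells with and without a UMI of EPCAM at E28 (large cluster only), E31 and E37. IGF1 is lower with EPCAM in all 3 libraries, and IGFBP7 is 1081 CPM with and 8582 CPM without EPCAM at E37, with a small difference at E28 and E31.

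Between neighbouring stages, podocyte-like cells differed most at E37. Against E31, 6 of 7 genes were apart in them, beside 14.5% of all genes compared in that class: IGF1, IGFBP2, IGFBP3 and IGFBP7 were higher at E37, and IGFBP4 and IGFBP5 were lower. The calls for IGF1 and IGFBP3 each turned on 1 cell, with 27 and 28 of their 45 UMIs at E37. Without the richest cell of each library their ratios were 1.48 (0.835 to 2.48) and 0.906 (0.512 to 1.51). Nor did all calls hold on both sides of the EPCAM division. In cells with EPCAM, IGF1 stood at 6.58 CPM at E37 against 13.9 CPM at E31, IGFBP2 at 2465 against 1086 CPM and IGFBP3 at 94.3 against 41.2 CPM. In cells without it, IGF1 stood at 321 CPM at E37 against 35.3 CPM at E31, IGFBP2 at 1619 against 948 CPM and IGFBP3 at 15.3 against 31.1 CPM, on 2 UMIs at E37. IGFBP7 was higher and IGFBP4 and IGFBP5 were lower at E37 on both sides. Between E31 and E28, 2 of 7 genes were apart, beside 3.01%, with IGF1 (ratio 0.3997) and IGFBP3 (0.467) lower at E31.

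In coelomic epithelium-like cells 3 of 7 genes were apart between E37 and E31, beside 11% of all genes. IGFBP7 stood at 311 CPM at E37, against 11.7 CPM at E31, a ratio of 26.7 (19.0 to 38.6). IGF1 (7.43 against 33.3 CPM) and IGFBP2 (363 against 893 CPM) were lower at E37. The leading gene of the E37 class was LHX9, a transcription factor gene of the gonadal ridge, followed by KRT19, whereas LUM led at E31, also followed by KRT19. WNT2B was among the leading genes of both. The part of this change of leading gene in the ratios was not tested.

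In intermediate mesoderm and nephrogenic mesenchyme-like cells 4 of 6 genes with enough UMIs were apart between E28 and E24, beside 10.7% of all genes. IGFBP3 was 9.23-fold higher at E28 (7.60 to 11.3), IGFBP7 5.56-fold and IGFBP4 2.82-fold, and IGFBP5 had a ratio of 0.179 (0.162 to 0.198). In the same class IGFBP3 was the 1 gene of 6 apart at the later steps, with a ratio of 0.319 for E31 over E28, beside 2.08%, and of 2.85 for E37 over E31, beside 8.05%. In sclerotome and somite-like cells 5 of 6 were apart between E28 and E24, beside 17.9%: IGF1, IGFBP3 and IGFBP4 were higher at E28, and IGFBP2 and IGFBP5 were lower. The class held unlike clusters, led by PAX1 and PAX9 and by RIPPLY1 at E24 and by MEOX2 and FAP at E28, where 4 of 8 markers were high, and the part of this in the ratios was not tested. IGFBP4 was thus higher and IGFBP5 lower at E28 in both classes, as they were in the whole libraries. Between E31 and E28 none of 6 genes was apart in the sclerotome and somite-like class, beside 8.23%, and IGF1 was lower at E31 without the richest cells (ratio 0.495). In endothelium-like cells none of the 5 genes with enough UMIs was apart between E28 and E24, beside 7.85%, nor between E31 and E28, beside 2.27%. The first of these counts turned on 1 cell, which held 200 of the 440 IGFBP3 UMIs of the E24 class. Without the richest cell of each library IGFBP3 stood at 163 CPM at E28 against 68.5 CPM at E24, a ratio of 2.38 (2.04 to 2.79).

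In neural crest and glia-like cells neither IGF1R nor IGFBP2 was apart at any step, and 1 of 6 genes was apart between E28 and E24, beside 17% of all genes. That gene was IGFBP5, at 159.9 CPM at E28 against 16.5 CPM at E24. None of 5 was apart between E31 and E28, beside 1.92%. Between E37 and E31, 2 of 6 were apart, beside 7.9%: IGFBP3 at 35.9 against 3.66 CPM and IGFBP7 at 70.2 against 17.8 CPM. IGFBP3 in erythroid-like cells was at 21.6 CPM at E37 and 2.31 CPM at E31, which is the same direction. The part of free RNA in the ratio was not tested. Macrophage-like cells had 2 of 5 genes apart between E37 and E31, beside 6.75%. In them IGFBP3 stood at 66.1 CPM at E37 against 8.91 CPM at E31, and IGFBP5 at 56.5 CPM against 13.4 CPM, on 6 and 9 UMIs at E31. At E37 1 cell held 30 of the 55 IGFBP3 UMIs of the class, and 1 cell held 28 of the 47 IGFBP5 UMIs. Without the richest cell of each library both genes had too few UMIs for a call, at 30.5 against 4.58 CPM of IGFBP3 and 23.3 against 6.10 CPM of IGFBP5. IGFBP5 in erythroid-like cells was at 14.8 CPM at E37 and 0.771 CPM at E31, so both genes were higher at E37 in erythroid-like cells too.

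The 6 marker genes named for this gene set were then used to pick barcodes within each library, 1 UMI being enough: PAX8 for nephric cells, GATA3 for nephric duct and sympathoadrenal cells among others, PECAM1 for endothelium, ACTA2 for smooth muscle, LHX9 for the gonadal ridge and FOXF1 for splanchnic mesenchyme. The marker barcodes were compared with all other barcodes of the same library. Between 29.1% and 87.1% of marker barcodes rested on a single UMI of the marker, and 16.9% to 73.3% carried another of the 6 markers. There are 28 gene and library pairs for each marker. IGF1R was apart in none of its 24 marker and library pairs, with ratios from 0.766 to 1.39.

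**Figure D4:**
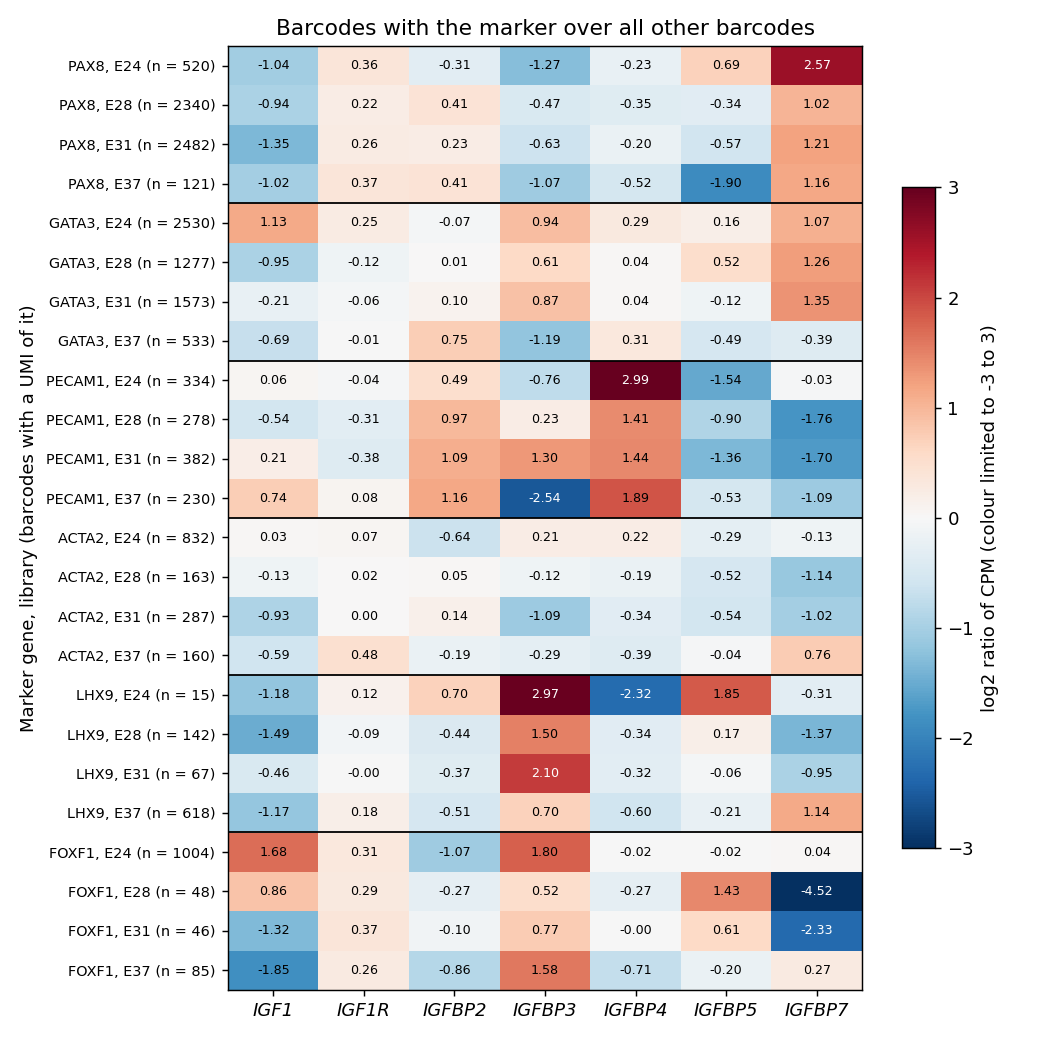
Log2 ratio of CPM in barcodes with a UMI of each marker over all other barcodes of the same library, with the 7 genes in columns and each marker and library in a row, marker by marker and in the order of stages. IGFBP4 is higher in PECAM1 barcodes at all 4 stages, and the IGF1R column stays between -0.38 and 0.48. IGFBP7 is higher in PAX8 barcodes at all 4 stages as drawn, but its E37 ratio turned direction with 2 or more UMIs of PAX8.

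PAX8 barcodes (520, 2340, 2482 and 121) had more IGFBP7 and less IGF1 than the rest. Of the 28 pairs, 10 were apart, 4 higher and 6 lower, beside 10.5%, 11.3%, 11.4% and 14.7% of all genes past 2-fold at E24, E28, E31 and E37. IGFBP7 stood at 28.7, 165, 116 and 334 CPM with PAX8, against 4.85, 81.1, 50.1 and 149.7 CPM in the rest, which are ratios of 5.91, 2.03, 2.32 and 2.23. At E37 the thinned share went against the level, with 14.9% of PAX8 barcodes and 16.7% of the rest carrying IGFBP7, so no order is read from that share. There 1 barcode held 78 of the 360 IGFBP7 UMIs and the ratio was 1.77 without it, and with 2 or more UMIs of PAX8 asked for the log2 ratio turned from 1.16 to -0.19. IGF1 had ratios of 0.467, 0.521, 0.392 and 0.459, the last on 7 UMIs, and its E37 log2 ratio turned from -1.02 to 0.41 when barcodes were thinned before PAX8 was counted. The 10 pairs apart became 6 under that thinning. IGFBP5 was higher with PAX8 at E24 only, with ratios of 1.61, 0.789, 0.674 and 0.267 in the order of stages. Of the 9 other nephric markers, 4 to 6 were higher in PAX8 barcodes in each library.

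GATA3 barcodes (2530, 1277, 1573 and 533) were a mixed group and had 5 pairs apart, 4 higher and 1 lower, beside 8.31%, 7.08%, 6.5% and 9.61% of all genes. IGFBP7 stood at 9.95, 212, 139 and 121 CPM with GATA3, against 4.74, 88.6, 54.4 and 159 CPM in the rest. It was thus more than 2-fold higher with GATA3 up to E31 and a little lower at E37. IGFBP3 had ratios of 1.91, 1.52, 1.83 and 0.437, and was past 2-fold lower only at E37. Of the sympathoadrenal markers with enough UMIs, 1 of 7, 4 of 7, 3 of 6 and 7 of 7 were higher in GATA3 barcodes at E24, E28, E31 and E37, and of the nephric markers 7 of 8, 3 of 9, 3 of 9 and 6 of 8. The part of this mix of cells in the IGFBP7 and IGFBP3 ratios was not tested. At E24 IGF1 was also higher with GATA3, at 6.21 against 2.83 CPM.

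ACTA2 barcodes (832, 163, 287 and 160) had the fewest pairs apart of the marker groups. Of the 28 pairs 3 were apart (5 where 2 or more UMIs of ACTA2 were asked for, and 5 without the barcode richest in each gene), all lower with ACTA2, beside 6.92%, 8.79%, 8.61% and 11.3% of all genes. The count of 3 is close to that share of all genes, so it is not read as a trait of the 7 genes. IGFBP7 had ratios of 0.909, 0.451, 0.491 and 1.69, and IGFBP3 stood at 34.7 CPM with ACTA2, against 74.0 CPM in the rest, at E31. Of the 6 other markers of smooth muscle and pericytes, 5 had enough UMIs, and 3 of them (TAGLN, ACTG2 and CNN1) were higher in ACTA2 barcodes in each library. RGS5, a pericyte gene, was lower with ACTA2 at E31 and E37.

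LHX9 barcodes (15, 142, 67 and 618) had more IGFBP3 than the rest, past 2-fold up to E31. In all, 10 pairs were apart, 5 higher and 5 lower, beside 23.5%, 16.7%, 14.8% and 11.7% of all genes, and 6 of the pairs apart remained without the E24 library. IGFBP3 stood at 402 CPM with LHX9 against 142 CPM at E28, at 297 against 69.2 CPM at E31 and at 862 against 533 CPM at E37, with ratios of 2.84, 4.29 and 1.62. At E24, 15 barcodes gave a ratio of 7.85. IGFBP7 had ratios of 0.385 at E28, 0.509 at E31 and 2.20 at E37, where it stood at 297 CPM with LHX9 against 135 CPM in the rest. LHX9 barcodes thus had less IGFBP7 than the rest at E28 and E31, past 2-fold only at E28 (also at E31, with a ratio of 0.408, without the richest barcode), and more at E37. IGF1 was lower with LHX9 at E28 (ratio 0.338, 9 UMIs, a log2 ratio that turned from -1.49 to 0.83 under thinning) and at E37 (0.438, 32 UMIs), and no UMI of it lay in the 15 barcodes of E24. Of the 5 other gonadal somatic markers, GATA4 was higher with LHX9 at E24 and E37, EMX2 was higher at E37 and lower at E24, and NR0B1 was higher at E28 and E31 and lower at E24. NR5A1, a defining gene of gonadal somatic cells, was scarce throughout, with 1, 6, 5 and 7 UMIs over the whole libraries and 0 in LHX9 barcodes, so nothing is read from its absence there.

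FOXF1 barcodes (1004, 48, 46 and 85) had more IGFBP3 than the rest in every library. In all, 9 pairs were apart, 4 higher and 5 lower, beside 8.98%, 16.6%, 14.8% and 15.1% of all genes. These 9 pairs became 14 where 2 or more UMIs of FOXF1 were asked for, and 5 without the E28 and E31 libraries, which had under 50 FOXF1 barcodes. IGFBP3 stood at 713, 214, 121 and 1655 CPM with FOXF1, against 205, 149.9, 71.6 and 555 CPM in the rest, with ratios of 3.48, 1.43, 1.69 and 2.98. IGF1 was 3.19-fold higher with FOXF1 at E24 (2.56 to 3.95) on 119 UMIs, while at E31 and E37 only 2 UMIs each lay in FOXF1 barcodes. IGFBP2 was lower with FOXF1 at E24, at 543 against 1143 CPM. At E28 IGFBP7 had 3 UMIs in FOXF1 barcodes, a ratio of 0.0374 (0.00772 to 0.109), and IGFBP5 was 2.69-fold higher. Other splanchnic mesenchyme markers were higher in FOXF1 barcodes, 4 of 6, 3 of 4, 1 of 2 and 2 of 2 of those with enough UMIs.

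PECAM1 barcodes (334, 278, 382 and 230) differed from the rest in more pairs than those of any other marker, with 13 apart, 7 higher and 6 lower, beside 19.5%, 24.7%, 21.7% and 25.6% of all genes. All 6 other endothelial markers were higher in them in each library. IGFBP4 stood at 791, 927, 846 and 1058 CPM with PECAM1, against 99.9, 349, 313 and 286 CPM in the rest, with ratios of 7.92, 2.66, 2.70 and 3.70. The level with PECAM1 varied by less than 2-fold across the stages, and the ratio was largest at E24, where the rest of the library was lowest. IGFBP2 had ratios of 1.41, 1.95, 2.12 and 2.23. IGFBP7, in contrast, was at 0.294, 0.307 and 0.468 of the rest at E28, E31 and E37, but when barcodes were thinned before PECAM1 was counted the E37 log2 ratio turned from -1.09 to 0.22.

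IGFBP3 in PECAM1 barcodes did not keep 1 direction. It stood at 154, 175, 160.5 and 103 CPM with PECAM1, against 262, 149, 65.2 and 602 CPM in the rest, with ratios of 0.588, 1.18, 2.46 and 0.171. At E24 1 barcode held 200 of the 647 UMIs with PECAM1, and the ratio was 0.407 without it. The level with PECAM1 varied by less than 2-fold across the stages, and the level in the rest varied more. In endothelium-like cells IGFBP3 was also held by few cells: the richest 10% held 93.2%, 90.6%, 88.0% and 84.7% of its UMIs, and 80.0%, 74.8%, 76.1% and 83.4% of cells had none. IGFBP4, by comparison, had 28.3%, 23.3%, 27.6% and 22.4% of its UMIs in the richest 10%.

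The cells with IGFBP3 were sought among PECAM1 barcodes with artery genes, a division chosen after this skew was seen. Barcodes with 2 or more UMIs over GJA4, GJA5 and DLL4, which are genes of arterial endothelium, numbered 68, 63, 64 and 42, against 266, 215, 318 and 188 without. IGFBP3 stood at 292 CPM with these genes against 125 CPM without at E24, at 532 against 67.8 CPM at E28 and at 689 against 43.5 CPM at E31. The ratios were 2.33 (1.97 to 2.75), 7.85 (6.68 to 9.24) and 15.9 (13.4 to 18.8). At E37 it stood at 121 CPM with and 98.9 CPM without, a ratio of 1.22 (0.881 to 1.66). IGFBP3 was thus higher with artery genes from E24 to E31, and at E37 the interval of its ratio held 1. Single barcodes carried much of these sums: the richest held 200 UMIs at E24 and 30 at E37, both without artery genes, and 67 at E28 and 87 at E31, both with them. Once the values were known, the ratios were also taken without the richest barcode of each library, and they were 4.30 (3.55 to 5.20), 7.01, 13.8 and 1.45 (1.04 to 1.99), so 1 barcode moved the E24 ratio by more than 1.5-fold, and the E37 interval no longer held 1.

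Of the 7 genes, of which 5, 6, 7 and 7 had enough UMIs, 1, 3, 3 and 2 were apart in this division at E24, E28, E31 and E37, beside 9.07%, 6.24%, 6.49% and 7.42% of all genes. IGF1R was higher with artery genes at E37, at 95.5 CPM with and 46.8 CPM without (ratio 2.04, 1.38 to 2.98). IGFBP7 had ratios of 0.178, 0.182 and 0.435 at E28, E31 and E37, on 8, 5 and 16 UMIs with artery genes. All PECAM1 barcodes held 158, 129 and 175 IGFBP7 UMIs in these libraries, against 13, 27 and 23 in endothelium-like cells. PAX8 was also carried by 36, 50 and 1 of the PECAM1 barcodes. The part of cells outside the endothelium in these ratios was not tested. IGFBP5 had ratios of 0.545, 0.448, 0.215 and 0.882, on 30, 20, 10 and 130 UMIs with artery genes. It was past 2-fold lower at E28 and E31, and at E37 its interval held 1 (0.725 to 1.07). IGFBP2 was 1.46, 1.35, 1.46 and 1.498-fold higher with artery genes, and IGFBP4 had ratios of 1.47, 1.12, 0.990 and 0.991. Another 6 artery genes (HEY1, HEY2, SOX17, CXCR4, EFNB2 and NOTCH4) were looked up, and 6, 6, 6 and 4 of them were higher with the 3 dividing genes, all of those with enough UMIs. Of 4 vein genes, NR2F2 and FLRT2 were lower at E24 and E31, EPHB4 and APLNR were apart in no library, and none of the 4 was apart at E28 or E37. Genes of mesenchyme moved with the division too: of 6 listed, those past 2-fold were COL3A1 and DCN at E24 and COL1A1 and COL3A1 at E28 and E31, all lower with artery genes, and none was at E37. COL3A1 had ratios of 0.248, 0.192 and 0.152 from E24 to E31. The general endothelial genes CLDN5 and TIE1 were higher with artery genes at E24, with ratios of 2.27 and 2.03. The part of these genes' cells in the IGFBP5 and IGFBP7 ratios was not tested.

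**Figure D5:**
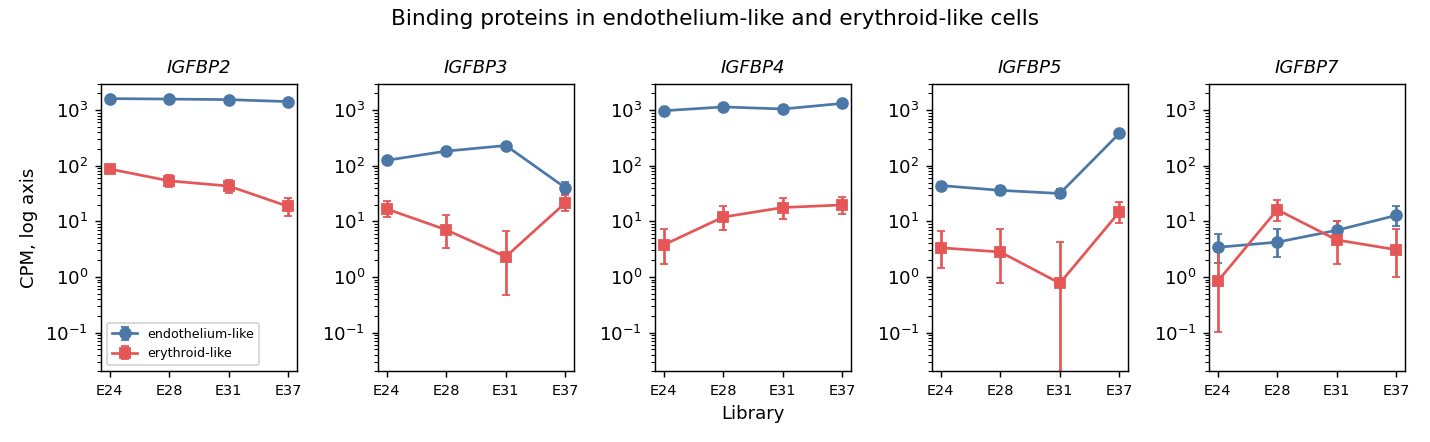
Level of the 5 binding proteins (log axis, CPM, with exact 95% Poisson intervals) in endothelium-like cells and in erythroid-like cells by library. IGFBP4 and IGFBP2 vary by less than 2-fold in endothelium-like cells across the stages, IGFBP5 is highest and IGFBP3 lowest in them at E37, and IGFBP7 stays under 13 CPM in them, below the erythroid-like level at E28.

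Within endothelium-like cells (305, 214, 306 and 175) the E37 library stood apart from E31 in 3 of 7 genes, beside 5.05% of all genes. IGFBP5 stood at 383 CPM at E37 against 31.8 CPM at E31, a ratio of 12.1 (9.94 to 14.7). IGFBP3 stood at 40.2 CPM at E37 against 231 CPM at E31 (ratio 0.174, 0.135 to 0.221), while in the whole library it was 7.96-fold higher at E37. IGF1 was 2.18-fold higher at E37 (1.31 to 3.65) on 33 UMIs in each library. The class did not hold the same cells at both stages, since 21 cells led by artery genes lay outside it at E37 and no such cluster was found at E31. Over PECAM1 barcodes, which take in artery cells at both stages, IGFBP3 stood at 103 CPM at E37 against 160.5 CPM at E31, a ratio of 0.641 (0.553 to 0.741) that was not past 2-fold. At E37, 53 of the IGFBP3 UMIs in PECAM1 barcodes lay in those with artery genes and 188 in those without. The part of the 21 cells in the smaller difference was not tested. IGFBP5 was 7.66-fold higher at E37 over PECAM1 barcodes (6.58 to 8.93). The higher IGFBP5 was thus seen with either choice of cells, and the size of the IGFBP3 difference changed with it.

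Free RNA limits what the low values show. At E37 endothelium-like cells held 0.411 UMIs of IGFBP3 per cell and erythroid-like cells held 0.315, so these means lay close together. The IGFBP3 UMIs of the endothelium-like cells were not evenly spread, however. The richest 18 of the 175 cells held 84.7% of them, and 83.4% of cells had none. The part of free RNA in the E37 value was not tested. IGFBP7 held 0.0607 UMIs per endothelium-like cell at E28, under the 0.479 of erythroid-like cells. The erythroid-like value is therefore not read as the free RNA level of IGFBP7 at E28. A further 21 cells at E37, led by the artery genes GJA5 and GJA4, were left unnamed. They held 2019 CPM of IGFBP2, 783 CPM of IGFBP4 and 170 CPM (115 to 243) of IGFBP3, which is above the 40.2 CPM of the named endothelium-like cells.

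The number of binding proteins found per barcode was counted after thinning. None of the 5 was found in 14.6%, 11.8%, 15.8% and 9.36% of barcodes at E24, E28, E31 and E37. A single one was found in 49.5%, 37.6%, 40.01% and 24.9%, which was the most common outcome up to E31. A pair was found in 30.02%, 35.6%, 33.5% and 32.4%, and 3 were found in 5.60%, 12.9%, 9.39% and 23.7%. All 5 were found in 0, 4, 4 and 80 barcodes, which is 1.51% at E37. Barcodes with 3 or more binding proteins were most common at E37, where IGFBP3 and IGFBP5 were highest.

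Across the 92 clusters with at least 50 cells, levels of the members were only loosely alike, as a description over clusters that share libraries. The closest pair was IGFBP3 and IGFBP5, with a Pearson r of 0.44 on log2 of CPM plus 10, and 0.05, 0.45, 0.25 and 0.64 over the clusters of E24, E28, E31 and E37 alone. IGF1 and IGFBP4 followed with 0.41. IGFBP2 and IGFBP5 are neighbours in the genome, with 0 protein-coding genes between them in the RefSeq table for assembly T2T-MFA8v1.1, and had an r of 0.20. Among all 8933 genes compared, the most alike were STAC3 (0.72) and CFD (0.69) for IGF1, GATA6 (0.83) and COLEC11 (0.81) for IGFBP3, TNFRSF1A (0.74) and ZYX (0.73) for IGFBP4, and AIG1 (0.77) and GINM1 (0.74) for IGFBP7. MN1 and TSHZ2 (0.68 and 0.65) were nearest to IGFBP5, and BEX4 and OLA1 (0.69 and 0.68) to IGFBP2. IGF1R had the closest match of all with ADNP (0.90).

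The rest of the pathway was read from a list of 44 genes, of which 43 had a row and 41 had enough UMIs in each stage comparison. Between E28 and E24, 8 of the 41 were higher (INS, INSR, IGFBP1, IGFALS, PAPPA2, GHR, IRS2 and GRB14) and 1 was lower (IGFBP6), which is 22% of the list beside 22.4% of all genes compared, with a median log2 ratio of 0.51. Between E31 and E28, 0 were higher and IGFBP1 was lower, 2.44% beside 4.24% of all genes, with a median of -0.13. Between E37 and E31, HTRA1 was higher and 4 were lower (IGFALS, PAPPA2, IRS2 and GRB14), 12.2% beside 16.7% of all genes, with a median of -0.04. The share of the list past 2-fold was thus at or under that of all genes at each step. The ligand gene INS (25 to 61 UMIs per library) and the binding protein gene IGFBP1 were scarce.

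Among receptors, INSR, which binds insulin and can pair with IGF1R, stood at 21.6, 45.2, 44.8 and 36.8 CPM in the order of stages. It was 2-fold or more higher at E28 than at E24. Unlike IGF1R it had a distinct peak, at 262 CPM (225 to 303) in the small podocyte-like cluster of E28, which also held the most IGF1 of that library, and at 120 and 78.4 CPM in podocyte-like cells of E31 and E37. IGF2R, which takes up and clears insulin-like growth factor 2, stood at 27.9, 45.7, 44.0 and 28.8 CPM. GHR, the growth hormone receptor, stood at 4.44, 15.2, 8.87 and 14.8 CPM. INSRR, an insulin receptor relative, had 3 to 22 UMIs per library.

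For PAPPA2 and HTRA1, proteases that cut binding proteins, the highest cluster of each library was looked up. Their spread over the other clusters was not measured. PAPPA2, which cuts IGFBP3 and IGFBP5, stood at 1.10, 18.9, 9.65 and 0.747 CPM. It reached 416 CPM at E28 and 296 CPM at E31 in the clusters led by SLC12A1 and IRX genes, the same clusters in which IGF1R was highest. HTRA1, a serine protease that cuts IGFBP5 among other substrates, stood at 11.3, 10.49, 6.32 and 21.7 CPM and was highest in endothelium-like cells at E28 and E31 (60.2 and 39.2 CPM) and in podocyte-like cells at E37 (349 CPM). At E24 it peaked at 137 CPM in the SLC5A12 and AQP1 cluster that led for IGFBP3. PAPPA was under 1 CPM in every library, and its inhibitors STC1 and STC2 stood at 9.99, 5.26, 4.21 and 3.98 CPM and at 7.66, 3.97, 3.63 and 3.24 CPM.

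IGFBP6, a further binding protein, which prefers insulin-like growth factor 2, stood at 83.0, 37.7, 34.9 and 23.5 CPM and was the 1 listed gene 2-fold or more lower at E28 than at E24. At E24 it reached 916 CPM in the MIR205HG and TFAP2B cluster that led for IGFBP2. IGFALS, which joins IGFBP3 in the serum complex, had 10 to 69 UMIs per library. Of the signalling adaptors, IRS2 stood at 15.8, 40.3, 29.4 and 14.3 CPM and GRB14, an inhibitor of the insulin receptor, at 1.99, 11.2, 8.06 and 3.24 CPM, and both were past 2-fold higher at E28 than at E24 and past 2-fold lower at E37 than at E31.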

How the data were processed

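Droplet 3′ libraries of cynomolgus embryo tissue were analysed, 1 per stage. The authors deposited unnormalized UMI counts, 1 value for each gene and barcode. Cell Ranger 2.1.0 is named in the submitters' processing notes, and the protocol in the labels names both v2 and v3 kits, without saying which served which library. The authors' build and gene models were not given in the sources used here. No coordinates are printed. IGF2 was not analysed here. A row without a name held 0 UMIs, a share of 0%.

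The libraries held 10639, 5028, 6661 and 5298 barcodes and 115332663, 62477350, 72233442 and 40243286 UMIs at E24, E28, E31 and E37. Barcodes with under 500 genes (5 at E37) and those called doublets by Scrublet in scanpy 1.11.5 (0, 64, 7 and 5) were removed. Under 0.5% was called at E24, E31 and E37, which was taken as a call that may not have worked, so an alternative removed 906, 202, 355 and 225 by score, at 0.8% per 1000 barcodes. For a gene with 0 UMIs, the limit is 0.0260, 0.0490, 0.0416 and 0.0747 CPM (3 counts).

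UMIs were summed and scaled to CPM. Intervals are exact (Poisson for levels, conditional binomial for ratios, Clopper-Pearson for shares, 95%). Log2 ratios used a pseudocount of 0.5 UMIs, and a gene was called apart only when past 2-fold both with and without it. Clusters were made per library from 2000 variable genes, 30 principal components, 15 neighbours and Leiden resolution 1 (igraph 0.11.9, seed 0), and named from 23 marker lists when at least 3 markers and 40% of a list were high and at least 2 were among the 10 leading genes, thresholds set after the data were seen. The counting was tested on simulated data. All 7 members are named in the text, with the ligands, receptors, binding proteins, proteases, their inhibitors and adaptors of the pathway list. For likeness, the 2 or 3 genes with the highest Pearson r across clusters are given. Members, markers and lists were chosen with earlier results of these data known. Python 3.11.15, numpy 2.4.6, scipy 1.17.1, pandas 2.3.3 and matplotlib 3.10.9 were used.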

Additional observations from a re-analysis of the deposited data

Results flagged for a closer look

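In 3 of the comparisons of marker barcodes with the rest of their library, a gene was past 2-fold on one side in one library and past 2-fold on the other side in a later one. The difference between stages was not tested in any of them, since each stage has 1 library. The ratio of IGF1 in FOXF1 barcodes over the rest was 3.19 at E24, on 119 UMIs, and 0.222 at E37, on 2 UMIs. The ratio of IGFBP3 in PECAM1 barcodes over the rest was 2.46 at E31 and 0.171 at E37. At E37 the level was 103 CPM in PECAM1 barcodes and 602 CPM in the rest, and at E31 it was 160.5 CPM in PECAM1 barcodes and 65.2 CPM in the rest. The ratio of IGFBP7 in LHX9 barcodes over the rest was 0.385 at E28, on 142 barcodes, and 2.20 at E37, on 618 barcodes. The clusters with LHX9 among their leading genes also differed between these libraries, and their part in the ratio was not tested.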

How the results depend on the processing

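The counts of genes or pairs past 2-fold were recomputed with all deposited barcodes, with doublets removed by score, with the mean of per-barcode CPM, without haemoglobin and ribosomal protein genes in the totals, with a minimum of 10 UMIs and, for stages, with a median-of-ratios scaling, and under these all stayed within 1.5 times. The E37 over E31 count was 2 and became 3 under the per-barcode mean, the changed totals and the median of ratios, because IGFBP7 lies at the threshold. Counts that moved further were PAX8 with 6 under thinning before the marker was counted (10 as reported), ACTA2 with 5 and FOXF1 with 14 where 2 or more UMIs of the marker were asked for (3 and 9 as reported), and LHX9 with 6 and FOXF1 with 5 without libraries of under 50 marker barcodes, an alternative chosen after seeing the data. Log2 ratios that turned direction were, with 2 or more UMIs of the marker, IGFBP7 with PAX8 at E37 (-0.19) and IGF1 with LHX9 at E24 (1.09), which also turned with other-marker barcodes left out (2.08) and under thinning (4.93). Under thinning IGF1 with PAX8 at E37 (0.41), IGFBP7 with PECAM1 at E37 (0.22), IGFBP4 with LHX9 at E24 (0.0228), IGF1 with LHX9 at E28 (0.83) and IGF1 with FOXF1 at E31 (0.97) turned too. IGF1 had no UMI in LHX9 barcodes at E24, so the values there are set by the pseudocount. The cause of the other turns was not tested. Without the richest barcode the E24 log2 ratio of IGFBP3 with artery genes was 2.103, against 1.22 as reported. Without the barcode or cell richest in each gene, an alternative also chosen after seeing the data, ACTA2 pairs became 5 (3 as reported). Between stages the counts became 1 in endothelium-like cells for E28 over E24 (0 as reported), 2 in intermediate mesoderm-like cells for E37 over E31 (1), 0 in macrophage-like cells (2), 4 in podocyte-like cells for E37 over E31 (6) and 1 in sclerotome-like cells for E31 over E28 (0). Of the 28 gene and library pairs, 11 had a highest cluster of 5-fold or more over the library, and 13 had at Leiden resolution 2. The share of all genes past this threshold was not taken, so these counts are not read as a trait of the gene set. No paired analysis was possible because each stage has 1 library and no replicate numbers. Depth limits IGF1 and the marker groups of under 50 barcodes, where values rest on a few UMIs.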
